A study of Mus musculus with 9 samples.

Results

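Gla proteins carry glutamate residues that have been converted to gamma-carboxyglutamate, a modified amino acid that binds calcium and lets the protein hold on to mineral or to membranes. The 7 genes described here comprise 5 genes of such proteins and 2 genes of enzymes that make the modification possible. They were taken by gene name from the deposited tables of all genes, and all 7 were found among 40548 genes. RNA sequencing had been performed on primary calvarial cells of C57BL/6 mice (C57BL/6J in the methods of the study), which are cells of the bone-forming lineage digested out of the skulls of newborn pups (postnatal day 2 to 3 in the sample records) and grown to confluence. The day 0 group was collected before differentiation, whereas the day 4 and day 7 groups had been kept for 4 or 7 days in mineralization medium, which contained ascorbic acid and β-glycerol phosphate. Each group had 3 libraries, called replicates 1 to 3, and no genotype or other agent differed between groups. According to the sample records, collagenase I was used to free mineralized cells but not cells without mineral, so an effect of the dissociation cannot be told apart from that of the stage.

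The carboxylase Ggcx adds the carboxyl groups and uses reduced vitamin K as its cofactor, which leaves the vitamin as an epoxide. The epoxide reductase Vkorc1 returns the epoxide to the reduced form, so that the vitamin can be used again. Osteocalcin, which mouse osteoblasts make from Bglap and Bglap2, is the Gla protein for which bone is best known. Bglap3 is a related gene beside them. Matrix Gla protein (Mgp) keeps soft tissue and cartilage from calcifying, and Gas6 is a secreted ligand of the receptor tyrosine kinases Axl, Tyro3 and Mertk.

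The 3 osteocalcin genes lie side by side on the reverse strand of chromosome 3 of GRCm38, with Bglap3 (ENSMUSG00000074489) at chr3:88368616-88372743, Bglap2 (ENSMUSG00000074486) at chr3:88377736-88378699 and Bglap (ENSMUSG00000074483) at chr3:88383501-88384464. Their coding sequences are shown because they set what could be counted for each gene. All are 285 bases long without the stop codon and are encoded in 4 exons. In the lines that follow, which run 5′ to 3′ along the transcript, capitals mark the 13 positions at which the 3 genes are not all alike.
Bglap: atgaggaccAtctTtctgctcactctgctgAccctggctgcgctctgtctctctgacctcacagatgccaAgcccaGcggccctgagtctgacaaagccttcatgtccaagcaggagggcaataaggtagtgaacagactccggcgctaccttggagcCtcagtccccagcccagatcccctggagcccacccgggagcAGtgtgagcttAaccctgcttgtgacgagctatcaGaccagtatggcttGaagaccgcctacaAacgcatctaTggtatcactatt
Bglap2: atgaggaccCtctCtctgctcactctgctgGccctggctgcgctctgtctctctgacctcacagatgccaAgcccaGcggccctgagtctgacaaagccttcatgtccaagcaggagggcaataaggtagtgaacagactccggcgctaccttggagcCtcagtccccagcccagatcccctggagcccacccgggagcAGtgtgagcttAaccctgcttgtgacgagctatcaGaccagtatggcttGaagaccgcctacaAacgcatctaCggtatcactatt
Bglap3: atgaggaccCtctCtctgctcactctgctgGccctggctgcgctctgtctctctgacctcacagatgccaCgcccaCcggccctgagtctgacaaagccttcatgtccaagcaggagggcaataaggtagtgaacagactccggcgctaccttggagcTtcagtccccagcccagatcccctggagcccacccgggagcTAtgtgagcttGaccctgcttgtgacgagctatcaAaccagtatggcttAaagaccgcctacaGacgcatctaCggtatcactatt
Bglap and Bglap2 differed at 4 of the 285 bases (98.6% identity), and the longest run of identical coding bases between them was 241. Counted from 1 at the first coding base, with the Bglap base first and the Bglap2 base last, the differences were A10C, T14C, A31G and T273C. Bglap3 was more distant, with 13 differences from Bglap (95.4% identity) and 9 from Bglap2 (96.8% identity).

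Because only reads that fitted 1 gene were counted, identical stretches bear on the levels below. Of the 569 distinct stretches of 50 bases in the annotated Bglap transcripts, 322 (56.6%) also occur in a transcript of another gene, 292 of them in Bglap2 and 110 in Bglap3. For Bglap2 it was 372 of 422 (88.2%). In the Bglap mature transcript of 440 bases, stretches found in no other gene start at bases 1 to 49 and 242 to 291, which gives 99 countable start positions. The Bglap2 transcript of 471 bases has only 50 such positions, at bases 71 to 80 and 273 to 312. Within these 2 transcripts, reads of this length could be assigned to 1 gene only from these positions. A further annotated Bglap transcript holds other stretches found in no other gene. The levels of Bglap and Bglap2 relative to each other are uncertain. Vkorc1 has a similar limit, since 353 of its 789 stretches (44.7%) also lie in Gm21974, a gene model on the same strand that overlaps it by 2392 bases and was listed at 0 in every library. Mgp and Gas6 shared no stretch of this length, and Ggcx shared 2 of 3524.

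**Figure D1:**
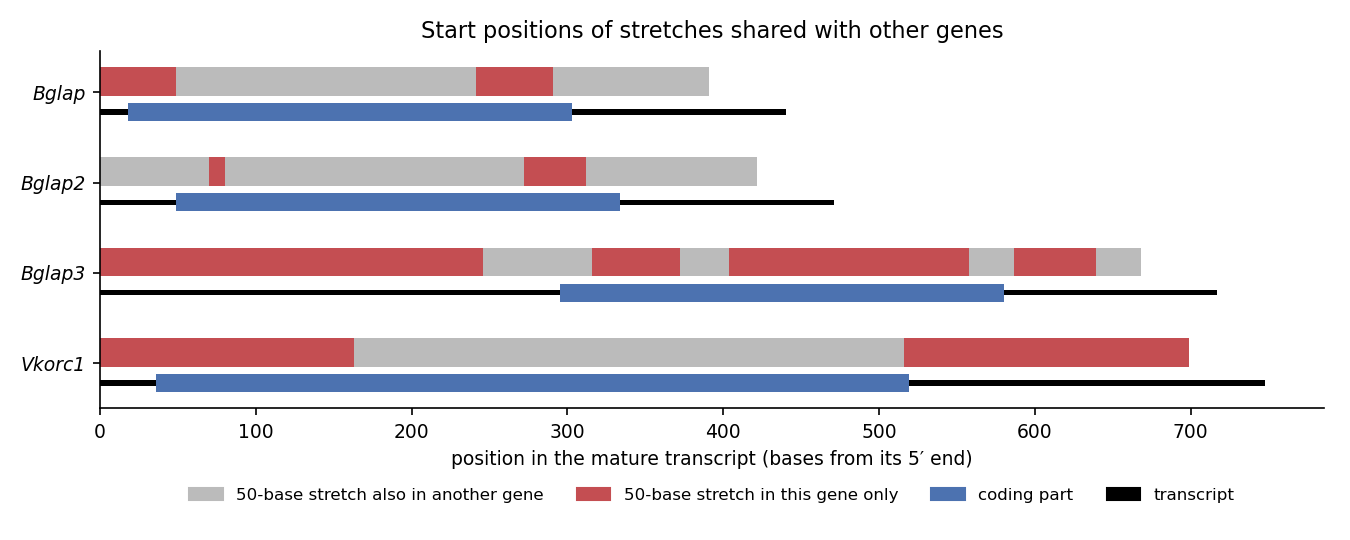
Positions along the mature transcripts of Bglap, Bglap2, Bglap3 and Vkorc1 (x axis, bases from the 5′ end) at which a stretch of 50 bases begins that also occurs in another gene (grey) or in that gene only (red), above the transcript (black) and its coding part (blue). Red covers 99 start positions in Bglap and 50 in Bglap2, and in Vkorc1 the middle of the transcript is grey because it also belongs to Gm21974.

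The 250 bases before the Bglap start site, chr3:88384467-88384716 on the reverse strand of GRCm38.p6 (RefSeq), are shown because Bglap had the largest change of the 7 genes. The sequence runs 5′ to 3′ toward the start site, and capitals mark a TATAAA match.
Bglap upstream: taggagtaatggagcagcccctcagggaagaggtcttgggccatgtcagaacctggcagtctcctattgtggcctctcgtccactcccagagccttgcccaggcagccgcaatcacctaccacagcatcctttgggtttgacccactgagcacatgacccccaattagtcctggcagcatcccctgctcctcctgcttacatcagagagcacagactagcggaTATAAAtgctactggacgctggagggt
The match begins 27 bases before the start site. Of 32851 promoter windows of 300 bases in the same table, 13.6% hold TATAAA on either strand. AACCACA, a form of the site that Runx factors bind, and AGGTCA, a nuclear receptor half-site, were also searched on both strands. Neither is in the 300-base window of Bglap as an exact match. AACCACA and AGGTCA occur in 5.27% and 16.3% of all windows. Only these exact letters were searched, and the sequence above does hold ACCACA, which lacks the first A of AACCACA. Windows were found for 5 of the 7 genes, not for Bglap2 or Mgp, and only the Bglap window held any of the 3 motifs.

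The libraries held 7741204 to 14013219 gene-assigned reads on day 0, 32820610 to 37306090 on day 4 and 10675858 to 15622755 on day 7. Levels are RPKM, that is reads on a gene scaled to the library total and to the length of the gene model in kilobases. They can be compared between genes, with exceptions. Levels may be too low for genes with shared stretches or with a model longer than their mature transcript. The model of Bglap has 618 bases and its mature transcript 440. Day 7 was tested against day 0 with limma on log2(CPM + 0.5), where CPM has the same scaling to the library total without the division by length, and calls were made at an adjusted p of 0.05. Values with ± are means with the SD of the 3 libraries of a stage (n = 3). A fold change on that scale understates the change of low genes. Day 4 lies in tables of its own with deeper libraries, so levels on day 4 were compared by values only and without a test. Shares within a library were the exception, and their limit is given with them. Osteoblast markers (Col1a1, Col1a2, Alpl, Ibsp, Sp7, Runx2, Dmp1 and Phex) had reads at every stage, with 7 of 8 higher on day 7 than on day 0. On day 0 Dmp1 had only 6, 5 and 6 reads and Phex 24, 13 and 5. The summed CPM of the 8 was 31020 to 39644 on day 0 and 82901 to 103663 on day 7. Most of it came from Col1a1 and Col1a2, with means of 14160 and 19934 CPM on day 0 and 35930 and 48404 on day 7. In bulk RNA a change in the number of cells of a type and a change in RNA per cell cannot be told apart.

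Of the 7 genes, 5 were higher on day 7 than on day 0 and 0 were lower among the 6 that were tested, whereas of all 12712 genes tested 31.2% were called, 12.6% as higher and 18.6% as lower. With unadjusted p-values below 0.05 the numbers were also 5 and 0, and 0 were lower with edgeR or DESeq2 on the recovered reads. Bglap3 was not tested, as its mean CPM of 0.601 over the 6 libraries lay under the limit of 1. The median log2 fold change of the 6 tested genes was 1.06, against −0.11 for all genes. The balance of calls over all genes depended on the scaling. Of the called genes 40.3% were higher as deposited and 52.1% with median-of-ratios scaling, which moved the median of all genes to −0.01. The 5 calls held under that scaling.

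Bglap was close to the limit of detection before differentiation. It had 0.346, 0.676 and 0.627 RPKM in the day 0 libraries (3, 5 and 3 reads), 29.0, 32.2 and 38.1 on day 4, and 126, 163 and 156 on day 7. No value of one stage overlapped those of another. In the order of mean levels among 12782 genes it moved from place 11825 on day 0 through 1445 on day 4 to 253 on day 7. The log2 fold change from day 0 to day 7 was 6.78 (standard error 0.20, adjusted p = 2.27e-31), the fifth largest rise of all genes tested. The day 0 CPM of 0.214 to 0.418 lay under the added 0.5, so these values depend on the scale. The log2 fold change was 7.73 with 0.1 added instead. With voomWithQualityWeights on recovered reads it was 7.99 (standard error 0.51, adjusted p = 1.42e-06). Because the day 0 level rests on 11 reads in all, the ratio of pooled reads, 279.95, had an exact 95% interval from 156 to 561, which covers counting error only. The day 7 mean was 4.48 times the day 4 mean.

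Bglap2 followed the same course with smaller steps. The day 0 libraries had 1.21, 0.710 and 0.548 RPKM (8, 4 and 2 reads), the day 4 libraries 13.1, 14.96 and 16.1, and the day 7 libraries 30.3, 36.2 and 46.3. All stages were separate. The log2 fold change from day 0 to day 7 was 4.35 (standard error 0.24, adjusted p = 6.63e-21), and the day 7 mean was 2.55 times the day 4 mean. With voomWithQualityWeights on recovered reads the log2 fold change was 5.56 (standard error 0.47, adjusted p = 9.20e-06).

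Bglap3 was far lower than its neighbours at each stage. A single read was counted on it on day 0, in replicate 1, against 16, 20 and 17 reads on day 4 and 12, 14 and 21 on day 7. Its RPKM were 0.0271, 0 and 0 on day 0, 0.185, 0.204 and 0.179 on day 4, and 0.334, 0.499 and 0.511 on day 7, so the stages did not overlap. The RPKM divide by a gene model of 2629 bases, whereas the coding transcript used above has 717. The ratio of pooled reads between day 7 and day 0 was 39.7, with an exact 95% interval from 6.78 to 1599. When genes with any reads were tested, Bglap3 passed with a log2 fold change of 1.67 (adjusted p = 8.63e-07).

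**Figure D2:**
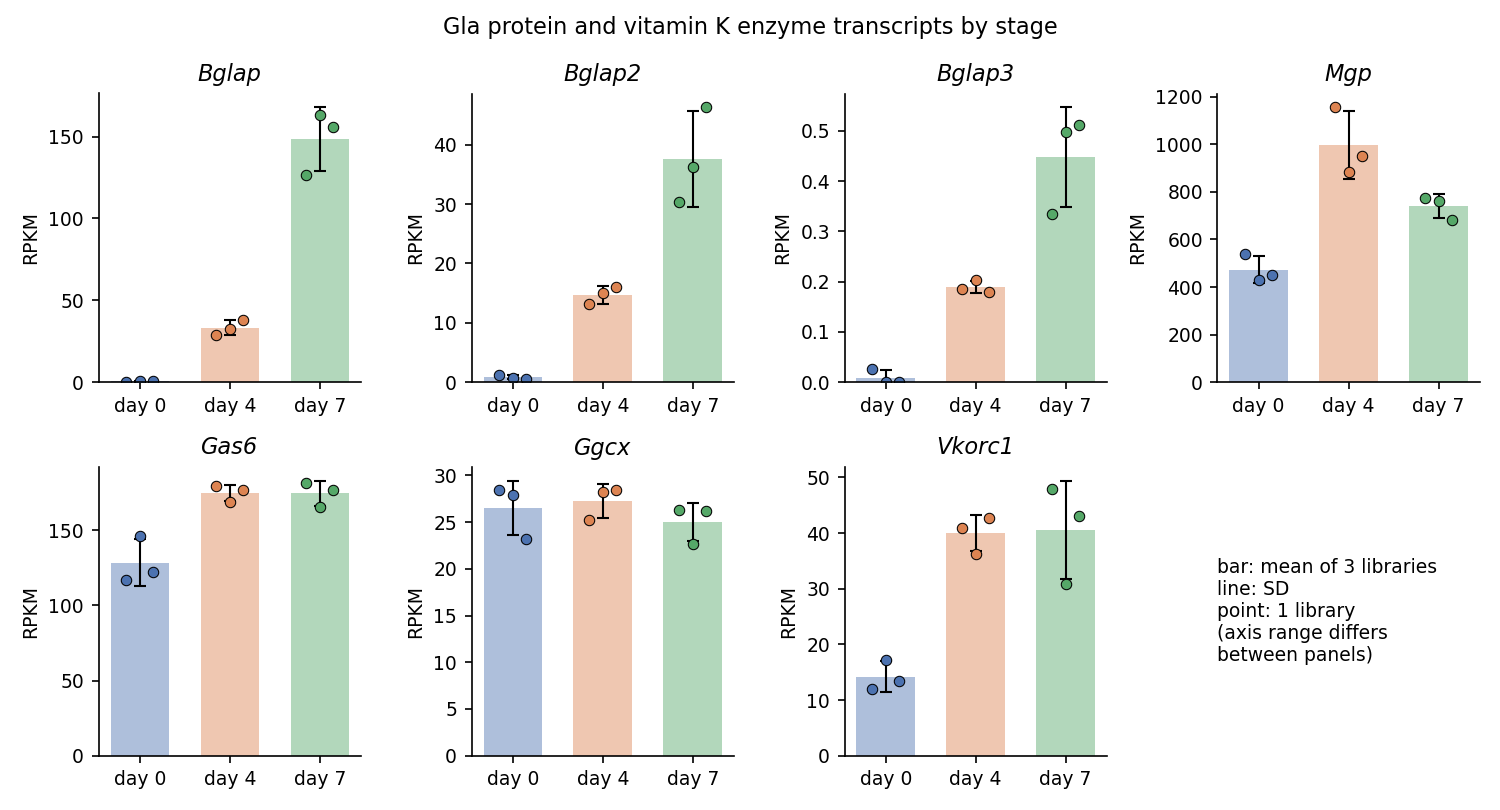
RPKM of the 7 genes (y axes, from 0, with a range of its own in each panel) on day 0, day 4 and day 7, with points for the 3 libraries of a stage, bars for their mean and lines for the SD. The osteocalcin genes are higher at each later stage, Mgp is highest on day 4, days 4 and 7 overlap for Gas6 and Vkorc1, and Ggcx overlaps between all stages.

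The mix of the osteocalcin genes also differed between the day 4 and day 7 libraries. This comparison stays within a library and does not depend on its scaling, but it does depend on which positions can be counted. Read length sets these positions and is not given, and day 4 lies in tables of its own. A difference in read length therefore cannot be told apart from that of the stage. Bglap made up 74.4%, 73.9% and 75.6% of the reads counted on Bglap and Bglap2 on day 4, and 84.5%, 85.5% and 81.5% on day 7. The exact 95% binomial intervals of the day 4 libraries ended at 78.1% or below, and those of the day 7 libraries began at 79.7% or above. In means the share was 74.6% ± 0.911 on day 4 and 83.9% ± 2.08 on day 7, with exact permutation p = 0.1, two-sided, the smallest that 3 libraries against 3 allow. At day 0 the shares were 27.3%, 55.6% and 60.0%, but they rest on 11, 9 and 5 reads, and their intervals ran from 6.02% to 94.7%. Bglap3 contributed 0.942% to 1.98% of the reads of the 3 genes in the day 4 and day 7 libraries.

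The size of the Bglap excess depends on which positions can be counted. At day 7, 5.27 ± 0.767 reads were counted on Bglap for each read on Bglap2, and on day 4 it was 2.95. Divided by the start positions of these 2 transcripts found in no other gene, the day 7 ratio was 2.66 for stretches of 50 bases and 5.66 for stretches of 100 bases. These 2 values were computed after the data were seen, and the read length is not given in the sources used here. Together the 3 genes had 0.751 ± 0.105 CPM on day 0, 27.9 ± 3.49 on day 4 and 111 ± 15.1 on day 7. Each of the day 7 libraries exceeded all of day 0 (difference 6.47 in log2(CPM + 0.5), which understates the change because of the added 0.5, exact permutation p = 0.1, two-sided).

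**Figure D3:**
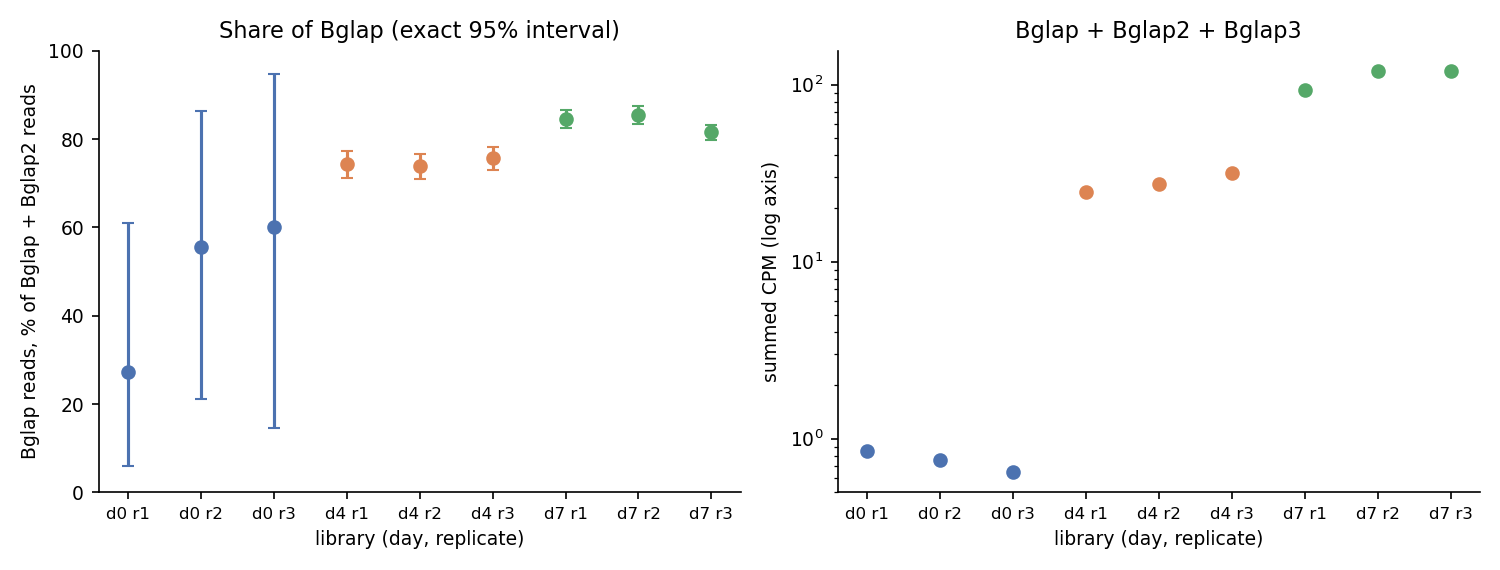
Left, reads on Bglap as a percentage of the reads on Bglap and Bglap2 in each library, with exact 95% binomial intervals. Right, summed CPM of Bglap, Bglap2 and Bglap3 in each library on a log axis. The share is above 81% in each day 7 library and below 76% in each day 4 library, while the day 0 intervals are wide because they hold at most 11 reads.

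Mgp (ENSMUSG00000030218, chr6:136872435-136875823, reverse strand, GRCm38) was the most abundant of the 7 genes in every library. It had 538, 429 and 452 RPKM on day 0, 1156, 882 and 952 on day 4, and 775, 764 and 683 on day 7. All day 4 libraries lay above all libraries of the other stages, and day 7 lay between day 0 and day 4 without overlap. The log2 fold change from day 0 to day 7 was 0.65 (standard error 0.16, adjusted p = 8.92e-04), and the mean on day 4 was 1.35 times that on day 7. In the order of mean levels Mgp took place 60 on day 0, 33 on day 4 and 44 on day 7 among 12782 genes. A day 4 level above both other stages in every library was found in 8.07% of these genes.

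Gas6 (ENSMUSG00000031451, chr8:13465374-13494490, reverse strand, GRCm38) was higher at both later stages than before differentiation. Its values were 117, 146 and 122 RPKM on day 0, 179, 169 and 177 on day 4, and 182, 165 and 177 on day 7. Each day 4 and day 7 library was above each day 0 library, and days 4 and 7 overlapped. The log2 fold change from day 0 to day 7 was 0.45 (standard error 0.16, adjusted p = 0.0229). The call was lost without day 0 replicate 1 (log2 fold change 0.38, adjusted p = 0.121), without day 7 replicate 1 (0.42, adjusted p = 0.101), without day 7 replicate 3 (0.44, adjusted p = 0.116) and with genes with any reads (0.45, adjusted p = 0.0572). Its adjusted p lay between 1.20e-06 and 0.121 across the alternatives. The gene overlaps Tmem255b, which lies on the opposite strand and had at most 4 reads in a library, over 3100 bases. As use of strand in counting is not stated, reads of the 2 genes there cannot be told apart.

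The enzymes behaved differently from each other. Vkorc1 (ENSMUSG00000096145, chr7:127893063-127895617, reverse strand, GRCm38) had 11.9, 17.2 and 13.5 RPKM on day 0, 40.9, 36.3 and 42.7 on day 4, and 47.9, 30.8 and 43.0 on day 7. Every library of the later stages was above the day 0 libraries, whereas days 4 and 7 overlapped. The log2 fold change from day 0 to day 7 was 1.46 (standard error 0.19, adjusted p = 1.16e-08), which ranked 441 from the highest of 12712 genes. Ggcx (ENSMUSG00000053460, chr6:72414308-72430712, forward strand, GRCm38) had 28.5, 27.9 and 23.2 RPKM on day 0, 25.2, 28.2 and 28.4 on day 4, and 26.3, 22.7 and 26.2 on day 7. These values overlapped between all stages. The log2 fold change from day 0 to day 7 was −0.08 (standard error 0.16, adjusted p = 0.747), and it turned to 0.03 under median-of-ratios scaling. Between its highest and lowest library Ggcx differed 1.25-fold, against 4.02-fold for Vkorc1.

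Ratios within a library put both enzymes and their substrates side by side. Vkorc1 had 0.418, 0.617 and 0.581 times the RPKM of Ggcx on day 0, 1.62, 1.29 and 1.504 times on day 4, and 1.82, 1.35 and 1.64 times on day 7. The summed RPKM of the 5 Gla protein genes were 603 ± 46.4 on day 0, 1219.8 ± 143 on day 4 and 1102 ± 34.7 on day 7. Relative to Ggcx this sum was 22.8 ± 2.10 on day 0, 45.1 ± 8.39 on day 4 and 44.2 ± 4.82 on day 7. Both ratios had all day 7 libraries above all day 0 libraries (exact permutation p = 0.1 for each, two-sided, 5 ratios or shares compared, all with this smallest p). The make-up of the sum differed too. Mgp accounted for 78.3% ± 3.79 of it on day 0, 81.6% ± 2.05 on day 4 and 67.2% ± 2.71 on day 7, whereas the osteocalcin genes went from 0.229% ± 0.0212 through 3.99% ± 0.808 to 17.0% ± 2.57. The osteocalcin part is subject to the limit on countable positions given above, and so are the levels of Vkorc1. For stretches of 50 bases, 49.5% of start positions in the Vkorc1 transcript are found in no other gene, against 99.9% for Ggcx. Whether Vkorc1 lay below Ggcx on day 0 is therefore uncertain.

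**Figure D4:**
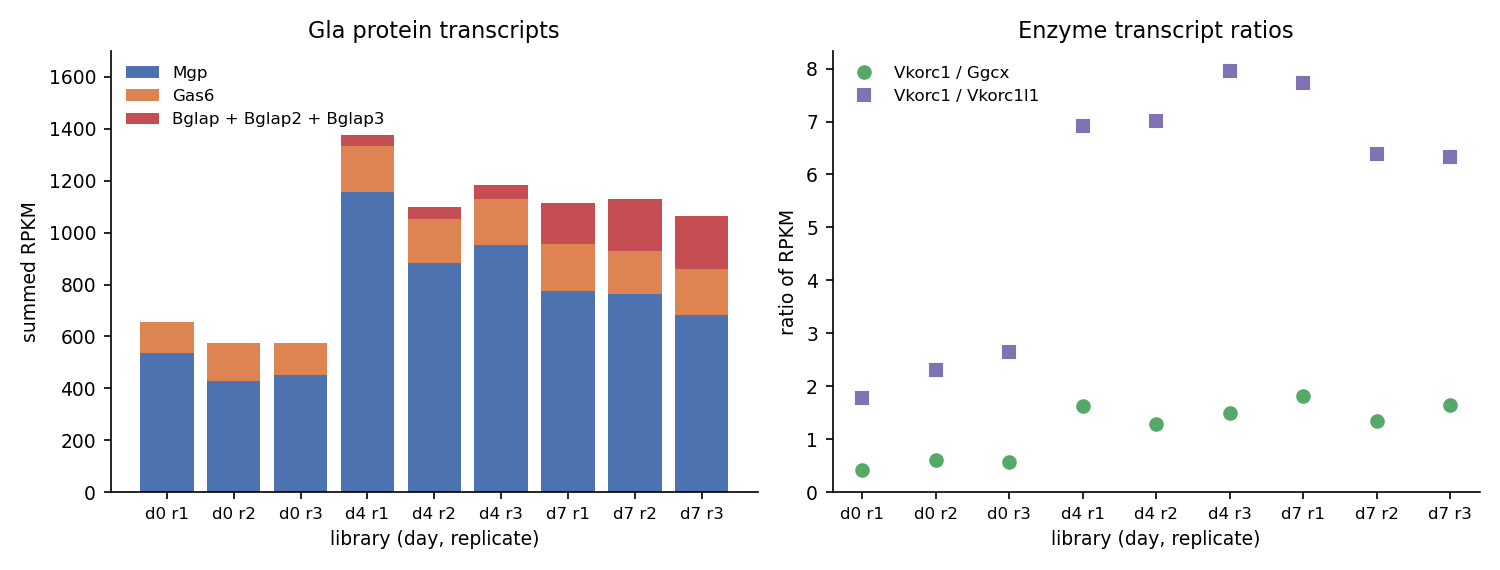
Left, RPKM of Mgp, Gas6 and the summed osteocalcin genes, stacked for each library. Right, RPKM of Vkorc1 divided by that of Ggcx (circles) and of Vkorc1l1 (squares) in each library. The stacks of days 4 and 7 are between 1062 and 1378 RPKM and those of day 0 between 575 and 656, and the osteocalcin layer is visible only from day 4.

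The order of levels shifted accordingly. At day 0 it was Mgp, Gas6, Ggcx, Vkorc1, then Bglap2 and Bglap, whose libraries overlapped, and Bglap3. By day 4 Vkorc1 and Bglap stood above Ggcx, and the libraries of Vkorc1 and Bglap overlapped with each other. At day 7 Bglap, as counted, came next below Mgp and Gas6 and did not overlap Gas6 (126 to 163 against 165 to 182 RPKM). Vkorc1 and Bglap2, which overlapped, and then Ggcx followed. These orders are uncertain for genes with shared stretches, which include Bglap2 and Vkorc1. In the Bglap mature transcript, 25.3% of start positions could be counted for stretches of 50 bases and 43.7% for 100 bases, against 100% for Gas6. Whether Bglap lay below Gas6 on day 7 therefore cannot be told from these values. Of the 7 genes, 6 had all day 4 libraries above all day 0 libraries, as did 21.6% of 12782 genes, and 0 had them below (21.9%). The same 6 genes, by name all but Ggcx, had all day 7 libraries above all day 0 libraries (16.9% of 12712 genes), and 0 had them below (25.4%). From day 4 to day 7 the 3 osteocalcin genes were higher in every library (13.6% of genes) and Mgp was lower in every library (25.0%). A course with both steps upward and no overlap, which the 3 osteocalcin genes had, was found in 3.07% of genes, and a day 4 level above day 0 that overlapped day 7, which Gas6 and Vkorc1 had, in 10.5%. Without day 4 replicate 1 Ggcx also lay lower in every day 7 library, without day 7 replicate 2 Vkorc1 lay higher, and with median-of-ratios scaling over the 9 libraries Gas6 lay higher.

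Genes of related function were taken from 4 lists with 35 genes in all, of which 26 were tested. Of these, 5 were higher and 6 lower on day 7 than on day 0, to be read beside the 12.6% and 18.6% of all genes.

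Among the 12 other Gla proteins, 5 were tested, with 0 higher and 2 lower, and their median log2 fold change was −0.34. The transmembrane Gla protein Prrg3 fell from 2.60 ± 0.615 RPKM on day 0 through 1.16 ± 0.193 on day 4 to 0.864 ± 0.0865 on day 7, a log2 fold change of −1.48 (adjusted p = 4.84e-08). Its relative Prrg4 also fell (log2 fold change −0.80, adjusted p = 0.00596), although not without day 0 replicate 1 (adjusted p = 0.0665), without day 7 replicate 2 (adjusted p = 0.0523) or with voomWithQualityWeights (adjusted p = 0.0555). Pros1 encodes the anticoagulant protein S, which like Gas6 binds Tyro3 and Mertk. Pros1 was the most abundant of the list, with 42.0 ± 6.48 RPKM on day 0 and 33.0 ± 2.63 on day 7. The gene did not pass (log2 fold change −0.34, adjusted p = 0.0955, from 0.00183 to 0.335 across the alternatives). Ucma, a Gla protein of cartilage, had 2.34, 2.18 and 0.730 RPKM on day 0, 1.21, 0.485 and 0.596 on day 4, and 0.166, 0.106 and 0 on day 7. It lay under the limit on CPM and was therefore not tested, and all its day 7 values were below those of the other stages. When genes with any reads were tested, Ucma passed (log2 fold change −1.74, limma adjusted p = 2.04e-05). Its day 7 CPM of 0.146, 0.0936 and 0 lay under the added 0.5, which holds their spread small in that fit. The liver clotting factors F2, F7, F9, F10, Proc and Proz were at most at 0.573 RPKM in any library.

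Cartilage and vessel wall cells also make Gla proteins, so their markers are given here. Of 8 chondrocyte markers 7 were tested, of which 2 were higher and 4 lower on day 7 than on day 0. Their summed CPM was 947 to 2748 on day 0, 313 to 1002 on day 4 and 272 to 772 on day 7. Most of the sum came from Col2a1, with means of 1436 CPM on day 0, 487 on day 4 and 321 on day 7. Col2a1, Col9a1, Sox9 and Cnmd were called lower. Acan and Col10a1 were called higher, with means of 38.3 and 2.37 CPM on day 0 and 80.6 and 8.18 on day 7. The day 0 range of the sum overlapped that of day 4 and lay above that of day 7. Ucma was likewise lowest on day 7, whereas Mgp was not. Replicate 1 had the highest sum of these markers at each of the 3 stages, with 2748, 1002 and 772 CPM. Col2a1 alone had 2519, 872 and 557 CPM there. Col9a1, Col10a1 and Cnmd were likewise highest in replicate 1 at each stage. Sox9 was highest in replicate 3 on days 0 and 4, and on day 4 Acan was highest in replicate 2 and Matn3 in replicate 3. Replicate 1 also had the highest level of Mgp and of Ucma at each stage. Of 8 smooth muscle and pericyte markers 7 were tested, with 5 higher and 1 lower on day 7 than on day 0. Their sum was 299 to 327 CPM on day 0, 809.7 to 996 on day 4 and 876 to 1119 on day 7. The sum was thus higher at both later stages, but most of it came from Cspg4. The mean of Cspg4 was 166 CPM on day 0, 633 on day 4 and 742 on day 7. Rgs5, the marker called lower, went from a mean of 2.26 CPM on day 0 to 0.786 on day 7. Notch3, which did not pass, went from 35.0 to 27.7, with no overlap between these stages. The 8 endothelial markers were all under the limit on CPM, with 0.571 to 2.68 CPM in sum on day 0 and at most 1.69 on days 4 and 7, and Tie1 and Emcn were at 0 in every library. The part of chondrocytes and smooth muscle cells in the levels of the Gla protein genes was not tested.

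In the list of 5 other vitamin K genes, which were all tested, 0 were higher and 1 was lower. Nqo1, a quinone reductase that can reduce vitamin K, had 53.2, 48.9 and 37.8 RPKM on day 0, 8.72, 8.52 and 9.43 on day 4, and 9.38, 12.3 and 12.5 on day 7, with all day 0 libraries above the later ones. Its log2 fold change was −2.001 (standard error 0.17, adjusted p = 8.56e-14). Vkorc1l1, the paralog of Vkorc1, overlapped between stages, with 6.40 ± 1.21 RPKM on day 0, 5.49 ± 0.385 on day 4 and 5.94 ± 1.02 on day 7, and did not pass (log2 fold change −0.10, adjusted p = 0.723). Vkorc1 thus had 2.25 ± 0.436 times the level of Vkorc1l1 on day 0 and 6.81 ± 0.788 times on day 7, higher in each day 7 library than in each day 0 library. Calu, which encodes calumenin, an inhibitor of the carboxylase, was abundant at 339 ± 64.4 RPKM on day 0 and 324 ± 1.90 on day 7 and did not pass (log2 fold change −0.05, adjusted p = 0.871). Aifm2, which encodes another reductase of the vitamin, did not pass either (log2 fold change −0.01, adjusted p = 0.969).

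Of the receptors and the convertase, 4 of 6 genes were tested, with 0 higher and 1 lower. Axl, the high-affinity receptor of Gas6, had 48.3, 49.3 and 45.2 RPKM on day 0, 55.1, 51.8 and 58.2 on day 4, and 28.6, 37.3 and 34.1 on day 7. It was thus highest on day 4 and lowest on day 7 without overlap. Its log2 fold change from day 0 to day 7 was −0.52 (standard error 0.15, adjusted p = 0.00710), and it did not pass without day 7 replicate 1 (log2 fold change −0.41, adjusted p = 0.0943). Tyro3 and Mertk had lower levels, 4.31 ± 0.845 and 5.01 ± 0.610 RPKM on day 0, and neither passed (log2 fold changes −0.43 and 0.21, adjusted p = 0.0562 and 0.381). With median-of-ratios scaling both passed, Tyro3 as lower (−0.32) and Mertk as higher (0.32). Mertk and Axl are also known in macrophages, whose 8 markers were all called higher on day 7 than on day 0, as were 12.6% of all genes. Their sum was 66.4 to 115 CPM on day 0 and 132 to 173 on day 7. Most of the sum came from Lyz2, with means of 60.3 CPM on day 0 and 100 on day 7. The part of macrophages in the levels of Mertk and Axl was not tested. Furin, which cleaves the propeptide of osteocalcin, did not pass (log2 fold change 0.22). The receptors Gprc6a and Gpr158, for which osteocalcin has been described as a ligand, had at most 0.136 RPKM in any library.

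The 12 regulators of the osteocalcin promoter were all tested, and 5 were higher and 2 lower on day 7 than on day 0 (median log2 fold change 0.22). Dlx3, a homeodomain factor, changed most. Its reads were 1, 0 and 3 in the day 0 libraries, and its RPKM went from 0.0586 on average on day 0 through 1.74 ± 0.0497 on day 4 to 5.37 ± 0.755 on day 7. With 4 day 0 reads in all, the ratio of pooled reads between day 7 and day 0 was 119, with an exact 95% interval from 46.1 to 437. The limma adjusted p of Dlx3 was 2.11e-20, and its adjusted p was at most 3.27e-06 across the alternatives. The vitamin D receptor Vdr rose from 1.15 ± 0.128 through 2.02 ± 0.234 to 2.98 ± 0.808 RPKM (log2 fold change 1.27, adjusted p = 1.52e-06). The zinc finger factor Sp7 rose as well (log2 fold change 1.76), and so did Atf4 (0.45, adjusted p = 0.0253), which lost its call when any of the day 7 replicates 1, 2 and 3 was left out (adjusted p from 0.0552 to 0.124), with genes with any reads (0.0865) and with the RPKM table (0.0576). Msx2, a homeodomain repressor, fell from 38.0 ± 5.08 RPKM on day 0 to 10.3 ± 3.21 on day 4 and 9.999 ± 1.58 on day 7 (log2 fold change −1.91, adjusted p = 5.84e-14). Rxra, the partner of Vdr, fell too (log2 fold change −0.74, adjusted p = 1.33e-04). Runx2 did not pass (0.23, adjusted p = 0.268), but passed with median-of-ratios scaling (0.34). Cbfb, Dlx5, Cebpb and Cebpd did not pass, with log2 fold changes from −0.15 to 0.21, and Cebpb passed with median-of-ratios scaling (0.31). The adjusted p of Cbfb, a partner of Runx2, ranged from 0.00756 to 0.985 across the alternatives.

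**Figure D5:**
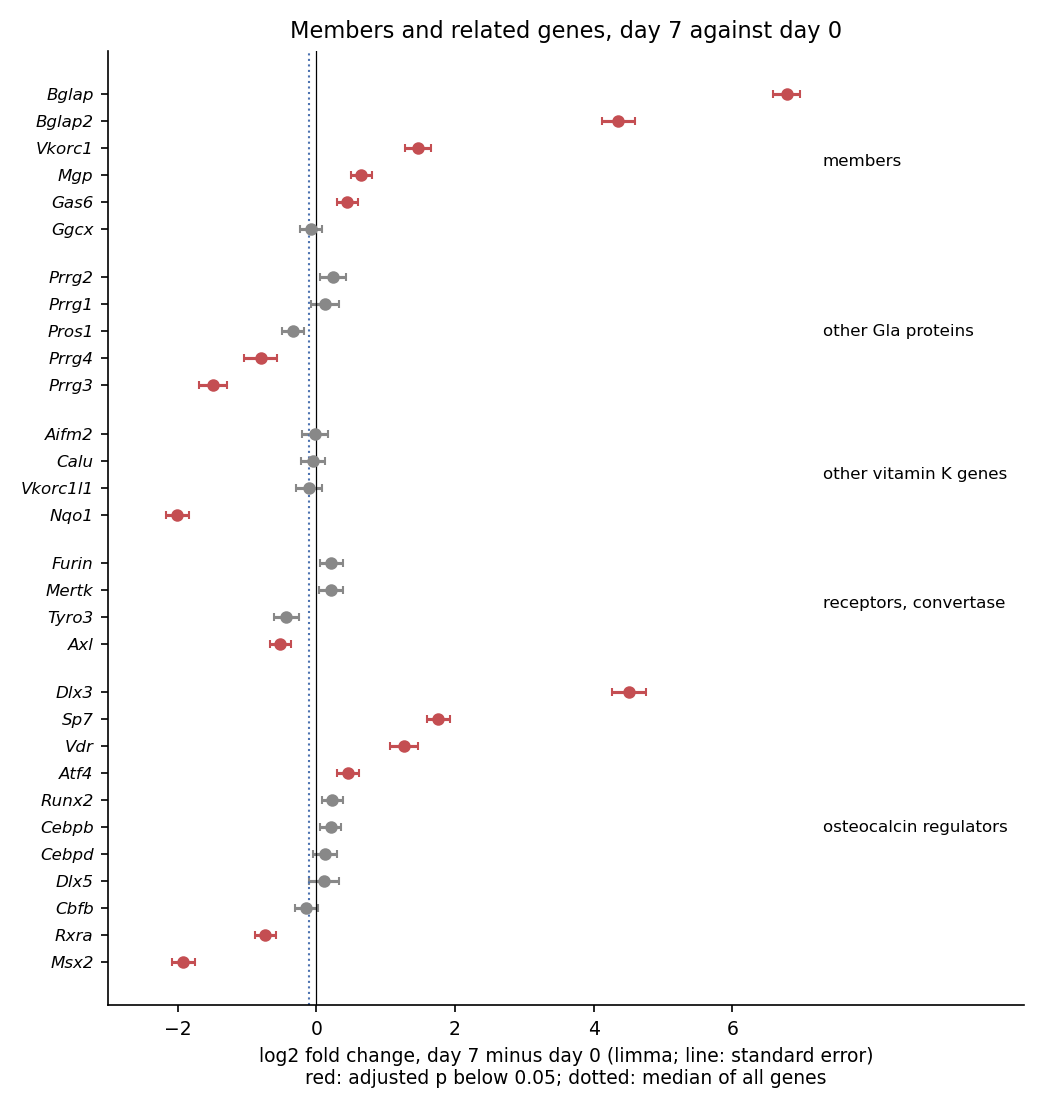
Log2 fold change from day 0 to day 7 (x axis) with its standard error for the tested members and 24 of the 26 tested genes of the 4 related lists, red where the adjusted p was below 0.05. The dotted line is the median of all genes at −0.11, and Bglap and Bglap2 lie farthest to the right among the 6 members while Nqo1 and Msx2 lie farthest to the left among the related genes.

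For each of the 7 genes, the 3 genes with the most similar course were found by Pearson correlation of log2(CPM + 0.5) over the 9 libraries, among the 9100 genes whose mean CPM was 10 or more. The libraries form 3 stages and differ in depth, so the points share stage and depth, and r is given as a description. Bglap was most like Ifitm5, a membrane protein of osteoblasts (r = 0.997), followed by Col13a1 (0.996) and Mlip (0.995). Closest to Bglap2 were Sema3b (0.996), Bglap itself (0.993) and Spns2 (0.993), and closest to Bglap3 were Slc36a2 (0.988), B4galnt3 (0.981) and Slc8a3 (0.980). Mgp, with its peak on day 4, resembled Ankrd1 (0.980), which went from 2.06 through 26.1 to 9.24 RPKM on average, Atp2b4 (0.978) and Cd276 (0.975). The first match of Gas6 was Vkorc1 (0.979), then Efs (0.977) and Epha3 (0.974), and Efs was also the first match of Vkorc1 (0.994), before Zdhhc8 and Pdgfrl (both 0.988). Ggcx, which hardly varied, was nearest to Tlcd1 (0.984), Ears2 (0.963) and Rhoc (0.942).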

How the data were processed

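Total RNA of cultured mouse calvarial cells had been depleted of ribosomal RNA and sequenced, with 3 libraries at each of days 0, 4 and 7. As stated in their methods, the authors aligned reads with STAR 2.0.4b to the Ensembl release 76 assembly (GRCm38) and used featureCounts to assign reads that aligned once and to a single gene. The CPM values deposited by the authors scale the reads on a gene to the library total, and in the deposited RPKM values this is further divided by gene model length. Day 0 and day 7 share a table and day 4 has its own. Repeated lines of a gene (276 and 273) were identical and used once. Genes were joined by Ensembl identifier, with each of the 18 value columns assigned to its sample.

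Dividing each CPM by what 1 read is worth gave whole reads, within 0.01 read, for 100% of values, so reads could be recovered. limma 3.58.1 (R 4.3.3) with a mean-variance trend was fitted to log2(CPM + 0.5) of day 0 and day 7 keeping the 12712 genes whose mean CPM reached 1, with Benjamini-Hochberg adjustment over all of them. Residual degrees of freedom were 4 and prior ones 42.9. Exact permutation tests of 3 libraries against 3 cannot go below p = 0.1. Alternatives were edgeR 4.0.16, DESeq2 1.42.0 and voomWithQualityWeights on recovered reads, other scalings, filters and pseudocounts, a replicate block, and leaving out each library. The limma, edgeR, DESeq2 and voomWithQualityWeights fits of all 6 libraries were tested on simulated data. The blocked and leave-one-out fits were not. Binomial intervals are exact, at 95%, and cover counting error only, since PCR copies were not marked. Whether replicates came from separate cultures or pups is not given per library in the records, so p-values measure the spread between these libraries.

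Positions and transcripts come from GENCODE M21 and the promoter windows from RefSeq, both on GRCm38. Stretches were searched in annotated transcripts, not in the genome. The members, the gene lists and the rule for the genes named were chosen with earlier results of these data known. The rule named the 7 members, list genes past the threshold (up to 4 in each direction), the 3 genes most alike in course, and neighbouring genes. Other list genes are named with their values to complete the lists and were chosen after their values were seen. 2 genes of these lists are included in the counts and medians but are not reported singly here.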

Additional observations from a re-analysis of the deposited data

How the results depend on the processing

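The number of members called higher on day 7 was 5 under each alternative that kept all 6 libraries, and 4 or 5 when 1 library was left out. The number called lower was 0 in all of them. Bglap, Bglap2, Mgp and Vkorc1 passed under every alternative run, and Gas6 was lost in the 4 named above. Among the 35 related genes, the number called higher was 5 as deposited, 9 with TMM factors, median-of-ratios factors, edgeR or voomWithQualityWeights, 8 with DESeq2, and between 4 and 5 without 1 library. The number called lower was 6 as deposited and 8 with TMM factors, median-of-ratios factors, edgeR or DESeq2. It was 7 with voomWithQualityWeights, robust variances or genes with any reads, and 5 with a mean CPM of at least 5. Without 1 library it was between 5 and 10, with 10 reached when day 0 replicate 3, the shallowest library, was left out. Over all genes, 2369 were called lower, which became 4699 without this library, 1521 if day 0 replicate 2 was dropped and 1554 if day 7 replicate 2 was. In day 0 replicate 3 the highest gene held 119626 CPM, against 29371 and 30371 in day 0 replicates 1 and 2. The TMM factor of day 0 replicate 3 was 0.877, against 1.13 for each of the other day 0 libraries. The bearing of these values on the calls was not tested. The count of members lower in every day 7 library than on day 4 was between 1 and 2 without 1 library. With stretches of 100 bases the shared part was 38.7% for Bglap, 57.0% for Bglap2 and 1.03% for Bglap3, against 56.6%, 88.2% and 11.5% with 50.

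Some log2 fold changes near 0 changed sign. With TMM factors, median-of-ratios factors, edgeR and DESeq2, in this order, Ggcx was 0.0278, 0.0308, 0.0302 and 0.0343, Vkorc1l1 was 0.0025, 0.0055, 0.0124 and 0.0141, Aifm2 was 0.0897, 0.0926, 0.105 and 0.107, and Calu was 0.0597, 0.0628, 0.0594 and 0.0621. With voomWithQualityWeights Ggcx was 0.0485, Aifm2 0.182 and Calu 0.0461. Without 1 library the values ran from −0.255 to 0.0378 for Vkorc1l1, from −0.123 to 0.110 for Aifm2, from −0.215 to 0.0511 for Calu, from −0.0769 to 0.270 for Prrg1, from −0.0592 to 0.294 for Dlx5 and from −0.0729 to 0.275 for Cebpd. The cause was not tested. The records do not say what a replicate number shares. Over all tested genes, deviations of same-numbered day 0 and day 7 libraries correlated with r = −0.02, −0.18 and −0.44, so the numbers were not used as pairs. The chondrocyte markers summed, mostly Col2a1, were nevertheless highest in replicate 1 at every stage. With the replicate block 5 members were higher and 0 lower, and over all genes 1463 were higher and 1950 lower, against 1602 and 2369 without it. Depth limits the day 0 levels of the osteocalcin genes, which rest on 1 to 14 reads per gene over 3 libraries.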

Other observations

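The protein-coding gene next upstream of Bglap, Pmf1, which encodes a kinetochore protein and lies 9679 bases away, had 25.3 ± 1.78 RPKM on day 0, 15.8 ± 1.86 on day 4 and 18.6 ± 1.67 on day 7 (SD, n = 3 each). Its log2 fold change from day 0 to day 7 was −0.43 (limma adjusted p = 0.0480). The pseudogenes between the osteocalcin genes, Gm6821 and Gm21956, had at most 2 and 6 reads in a library, and Paqr6, 75 bases from Bglap3, had between 1 and 33. Mat2a, which makes S-adenosylmethionine and lies 2087 bases from Ggcx, fell by 0.60 on the log2 scale (limma adjusted p = 0.00273), whereas its neighbour Ggcx did not pass.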
